A study of Homo sapiens with 12 samples.

Results

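The genes described here are the replication-dependent histone genes, the family that supplies the histones of new nucleosomes while DNA is copied. Members were all rows of the count table whose symbol starts with HIST1H, HIST2H, HIST3H or HIST4H, less 13 symbols that end in PS and a digit and mark pseudogenes, which left 76 of 53717 genes. They comprise 6 H1, 17 H2A, 23 H2B, 15 H3 and 15 H4 genes. Of these, 55 carry HIST1 names (chromosome 6 in GENCODE 29), 16 HIST2 and 4 HIST3 names (chromosome 1) and 1 a HIST4 name (chromosome 12). Gene annotation of GENCODE 29 types 6 of the 76 as pseudogenes, and among those only HIST2H2BC had enough reads to be tested.

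The RNA came from the established line H9, human embryonic stem cells, grown in RSeT medium for naive-type culture, and libraries were made from its poly(A) fraction. There were 3 groups of 4 libraries, and all cells were sorted for the fluorescein on their oligo at 48 h after lipofection at 25 nM. The groups were ASO-L1, an oligo antisense to the LINE1 retrotransposon, sO-L1, the matching sense oligo, and ASO-Ctr, an antisense oligo without a target. All 3 groups also had trans-ISRIB at 0.7 uM, emricasan at 5 uM and Y-27632 at 10 uM until 24 h. The count table lists genes, so LINE1 RNA itself was not analysed here. Replicates are numbered 1 to 4 in each group, and no label says whether they came from separate cultures, so p-values measure only the spread between these libraries, which may be technical.

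Core histones H2A, H2B, H3 and H4 form the protein spool of the nucleosome, and H1 binds the linker DNA between nucleosomes. Messages of replication-dependent histone genes are unusual in that most end in a short hairpin, the histone stem-loop, in place of a poly(A) tail. The stem-loop is bound by SLBP, cut just downstream with the help of the U7 snRNP, and the message is degraded quickly when DNA synthesis stops. When cleavage at the stem-loop is bypassed, many of these genes can use a poly(A) signal further downstream and make a polyadenylated message. Because the libraries were made with poly(A) selection, counts are of such polyadenylated forms and of any stem-loop message carried over, which cannot be told apart in counts per gene, and they are no measure of the total histone message.

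Both kinds of 3′ end are visible in transcript models of GENCODE 29 (GRCh38). The stem-loops of 5 members are shown, 4 that were called in at least 1 comparison and HIST1H2AC, the most abundant member, which was not, with the 16-base stem-loop in capitals and 5 bases on each side, 5′ to 3′ as DNA letters.
HIST3H2A: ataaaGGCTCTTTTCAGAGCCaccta
HIST1H2AC: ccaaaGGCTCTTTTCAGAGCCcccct
HIST1H2BH: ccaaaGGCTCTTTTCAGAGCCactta
HIST1H3G: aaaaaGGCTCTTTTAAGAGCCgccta
HIST1H4H: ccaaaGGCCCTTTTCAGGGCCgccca
HIST3H2A, HIST1H2AC and HIST1H2BH had the same stem-loop, which 18 members carried. The 16-base stem-loop of HIST1H3G was carried by 5 members and that of HIST1H4H by 5. In the transcript models, the stem-loop lay 390 bases before the end for HIST3H2A, 1128 for HIST1H2AC, 1640 for HIST1H2BH, 1518 for HIST1H3G and 1655 for HIST1H4H. The last 30 bases of those models follow, with the poly(A) signal AATAAA or its variant ATTAAA in capitals.
HIST3H2A: tctgatATTAAAagtatttatgatctctaa
HIST1H2AC: tAATAAAaggtaatgcaaagggagaggaaa
HIST1H2BH: aattttttAATAAAaggtttttttaatgtc
HIST1H3G: aatagtttAATAAAacctatgttcctctca
HIST1H4H: agaattgtgaaaaAATAAAtgtttaagcca
HIST3H2A had the variant ATTAAA, and the other 4 had AATAAA. Among all 76 members, 26 had one of these signals in the last 40 bases of a model, searched on the transcript strand. HIST4H4, and HIST1H1C and HIST1H2BK, which had no stem-loop in any model, were the 3 members called against ASO-Ctr without such a signal. The other 5 called there had such a signal. Of 83048 protein-coding models of other genes, 42.9% had such a signal, and 28 of the 83048, or 0.0337%, held a match to the histone stem-loop. These shares count single models, whereas the 26 of 76 are genes with a signal in at least 1 of their models.

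Members whose models run 100 bases or more past the stem-loop most often had enough reads to be tested. Models of 25 members extended 100 bases or more past the stem-loop, and 18 of those 25 members, or 72.0%, had enough reads to be tested. In 10 members the models ended sooner, and 5 of them, or 50.0%, were tested. Another 41 members had no stem-loop in any model and 13 of them, or 31.7%, were tested. A model can lack the stem-loop by ending before it, as that of HIST1H2BK, with 381 bases of coding part only. These 41 are thus not known to be genes without a stem-loop. By level, the 25 members with long models held 61.7% of the summed mean CPM (counts scaled to library size) of the family. The 10 with short models held 6.22% and the 41 without a stem-loop in any model 32.1%. This is a description of these models, since the sources used here do not name the annotation behind the counts, and a longer model also collects more reads.

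**Figure D1:**
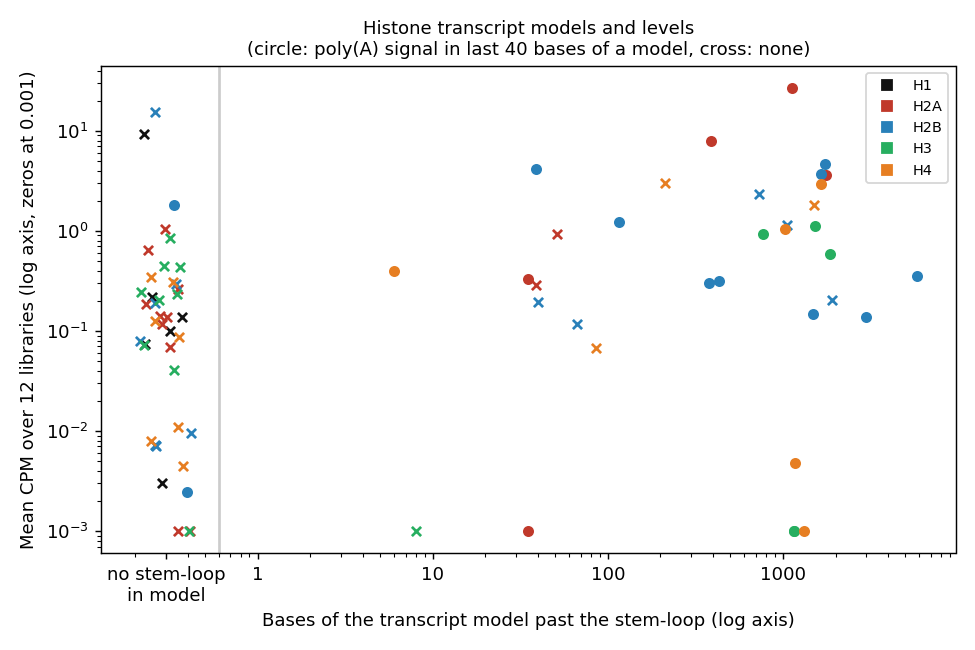
Each of the 76 histone genes by the bases its transcript model has past the stem-loop (horizontal, log axis, with models lacking a stem-loop at the left) and its mean CPM over 12 libraries (vertical, log axis). Of the 25 genes whose models run 100 bases or more past the stem-loop, 18 were tested, against 13 of the 41 without a stem-loop in any model.

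Histone reads were a small part of the libraries. Reads counted in genes came to between 22.8 and 55.1 M per library, and the 76 members took 43775 reads in all 12 libraries together. Their summed level was 121, 117, 95.5 and 96.2 CPM in the ASO-L1 replicates 1 to 4, 131, 102, 91.4 and 88.8 CPM in sO-L1, and 120, 105, 91.3 and 94.9 CPM in ASO-Ctr. The 3 groups overlapped, with means of 107 ± 13.6 CPM in ASO-L1, 103 ± 19.4 CPM in sO-L1 and 103 ± 12.7 CPM in ASO-Ctr (SD, n = 4 each). Within replicate numbers the sum was higher in ASO-L1 than in sO-L1 in 3 of 4 and than in ASO-Ctr in 4 of 4. A filter on low counts kept 36 members, 1 H1, 9 H2A, 12 H2B, 7 H3 and 7 H4 genes. Of the other 40, 32 had some reads and peaked at 0.50 CPM, and 8 had none. Those at 0 were HIST1H2AA, HIST1H2AD, HIST2H2AA4, HIST2H3A, HIST2H3C, HIST2H3DP1, HIST3H3 and HIST2H4B. Several of them have a near-identical copy in the genome (HIST2H2AA3 for HIST2H2AA4, HIST2H4A for HIST2H4B), and how reads that match more than 1 gene were counted is not given, so their zeros and the copies' levels are uncertain. In addition, 7 members share exon bases with another gene on the same strand, among them HIST1H3J with HIST1H2AM. Another gene on the other strand shares exon bases with 13 members, and strand use in counting is not given.

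A few genes carried most of the reads. H2A genes held 40.7% of the histone reads and H2B genes 35.2%, whereas H4 held 9.75%, H1 9.43% and H3 4.91%. One gene led each class. HIST1H2AC made up 63.2% of the H2A CPM, HIST1H2BK 41.7% of the H2B CPM and HIST1H1C 94.6% of the H1 CPM. The H3 and H4 classes were more even, with 21.8% in HIST1H3G and 29.3% in HIST1H4I. Per kilobase of GENCODE 29 exon, the mean level over 12 libraries was 40.2 CPM per kb for HIST1H2BK, whose model there is the coding part only, then 16.1 for HIST1H2AC, 14.5 for HIST1H1C and 8.76 for HIST3H2A. H1 shows how uneven the family was: HIST1H1B, the next H1 gene by level, had 94 reads in 12 libraries.

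**Figure D2:**
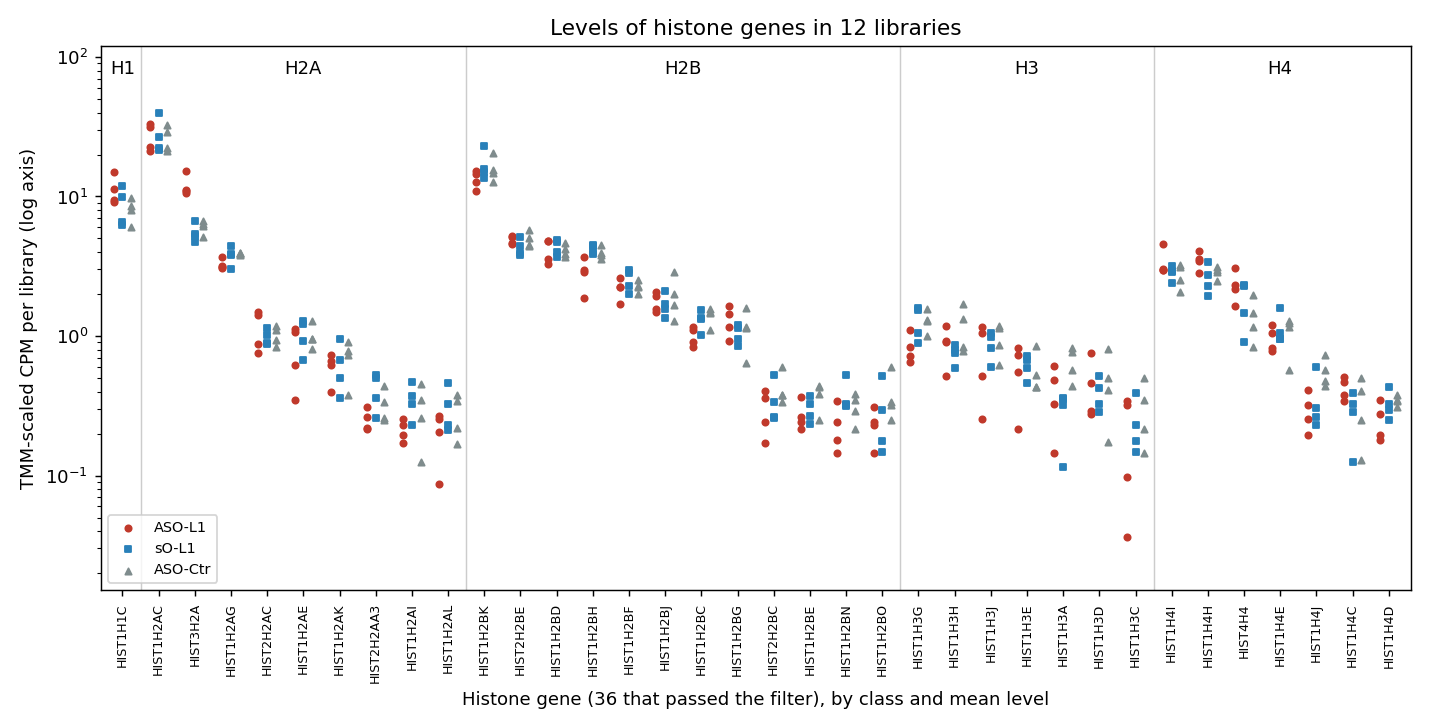
TMM-scaled CPM (log axis) of the 36 histone genes that passed the filter, 1 point per library, with ASO-L1, sO-L1 and ASO-Ctr side by side and genes grouped by class. HIST3H2A is the gene among the higher ones whose ASO-L1 points, 10.5 to 15.3 CPM, stand apart from both other groups, 4.73 to 6.67 CPM.

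Sums over a class overlapped between groups in all but 1 case. H1 genes summed to 11.9 ± 2.82 CPM in ASO-L1, 9.04 ± 2.76 CPM in sO-L1 and 8.60 ± 1.65 CPM in ASO-Ctr (SD, n = 4 each, here and below). H2A genes summed to 46.1 ± 7.13 CPM in ASO-L1, 41.1 ± 9.48 CPM in sO-L1 and 40.5 ± 5.38 CPM in ASO-Ctr. H2B genes summed to 33.6 ± 3.48 CPM in ASO-L1, 38.6 ± 5.88 CPM in sO-L1 and 38.0 ± 5.46 CPM in ASO-Ctr. The differences in H2A and H2B means were smaller than the larger SD of the groups. H3 genes summed to 4.47 ± 0.801 CPM in ASO-L1, 5.02 ± 0.435 CPM in sO-L1 and 6.02 ± 0.711 CPM in ASO-Ctr. H4 genes summed to 11.4 ± 1.04 CPM in ASO-L1, 9.51 ± 1.57 CPM in sO-L1 and 9.58 ± 1.05 CPM in ASO-Ctr, and the 4 ASO-L1 sums, 10.4 to 12.4 CPM, lay just above the 4 of ASO-Ctr, 8.09 to 10.3 CPM. Within replicate numbers, H1 and H4 sums were higher in ASO-L1 than in both other groups in 4 of 4, and H2B sums were lower than in both in 4 of 4. H2A sums were higher in ASO-L1 than in sO-L1 in 3 of 4 and than in ASO-Ctr in 4 of 4. Within them HIST3H2A alone averaged 11.96 CPM in ASO-L1, 5.50 CPM in sO-L1 and 6.07 CPM in ASO-Ctr. Of the 9 H2A genes tested, 3 had a positive and 6 a negative estimate against ASO-Ctr, and 4 and 5 against sO-L1. H3 sums were lower in ASO-L1 than in sO-L1 in 2 of 4 and than in ASO-Ctr in 4 of 4, and those of sO-L1 were also lower than in ASO-Ctr in 4 of 4. No test was run on these sums.

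**Figure D3:**
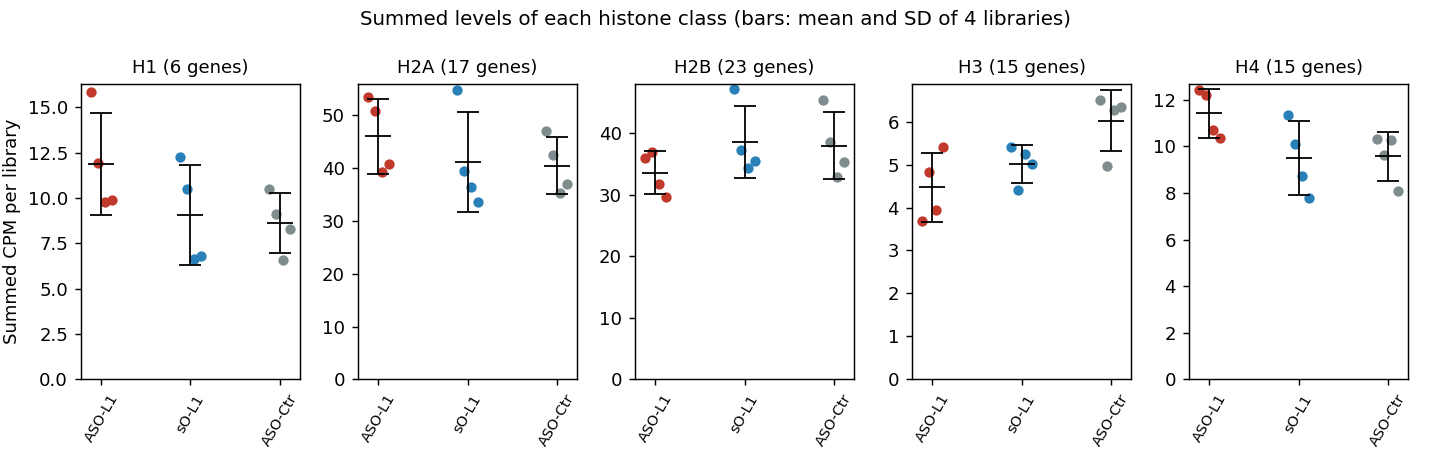
Summed CPM per library of the members of each class in ASO-L1, sO-L1 and ASO-Ctr (4 points per group, bar for mean and SD). Means of H1 and H4 are highest in ASO-L1, at 11.9 and 11.4 CPM, and that of H3 is lowest there, at 4.47 CPM, and groups overlap except for H4 between ASO-L1 and ASO-Ctr.

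The first comparison asks what the antisense LINE1 oligo did relative to the non-targeting one. Among 36 members tested, 3 were higher in ASO-L1 than in ASO-Ctr and 5 were lower at an adjusted p under 0.05 (edgeR quasi-likelihood test, Benjamini-Hochberg over 17264 genes). That is 22.2% of the members tested, where 44.3% of all genes tested were called, 21.2% higher and 23.1% lower. Histone counts are low, and calls are fewer among low genes: 24.7% of all genes with a mean under 5 CPM were called, and of the 32 members under that level 5 were, or 15.6%. The share called among histone genes was thus below that of all genes, and this difference was not tested. Of the 36 members tested, 18 had a mean under 1 CPM and 13 under 0.5 CPM. Levels below 5 CPM were not matched, so histone genes were not compared with genes of like level. The median log2 fold change of the 36 was -0.25, against -0.00 for all genes tested. Of the 36, 10 had a positive and 26 a negative estimate, and 27 of the 36 had a 95% interval that spanned 0. Among the 32 members under 5 CPM, 7 estimates were positive and 25 negative, with a median of -0.33. In 3 of the 36 the groups did not overlap, against 33.3% of all genes tested.

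Against the sense oligo, 6 members were called, 3 higher and 3 lower in ASO-L1. These were 16.7% of the 36, against 44.0% of all genes tested (21.1% higher, 22.9% lower). Of the 32 members under 5 CPM 3 were called, or 9.38%, against 25.4% of all genes under 5 CPM. Levels below 5 CPM were not matched here either. The median log2 fold change was -0.14 (15 positive, 21 negative), and groups did not overlap in 2 members, against 32.1% of all genes tested. Both comparisons use the same ASO-L1 libraries, so they are not independent. 5 members were called in both, HIST3H2A and HIST1H1C higher and HIST1H2BH, HIST1H2BK and HIST1H3G lower.

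**Figure D4:**
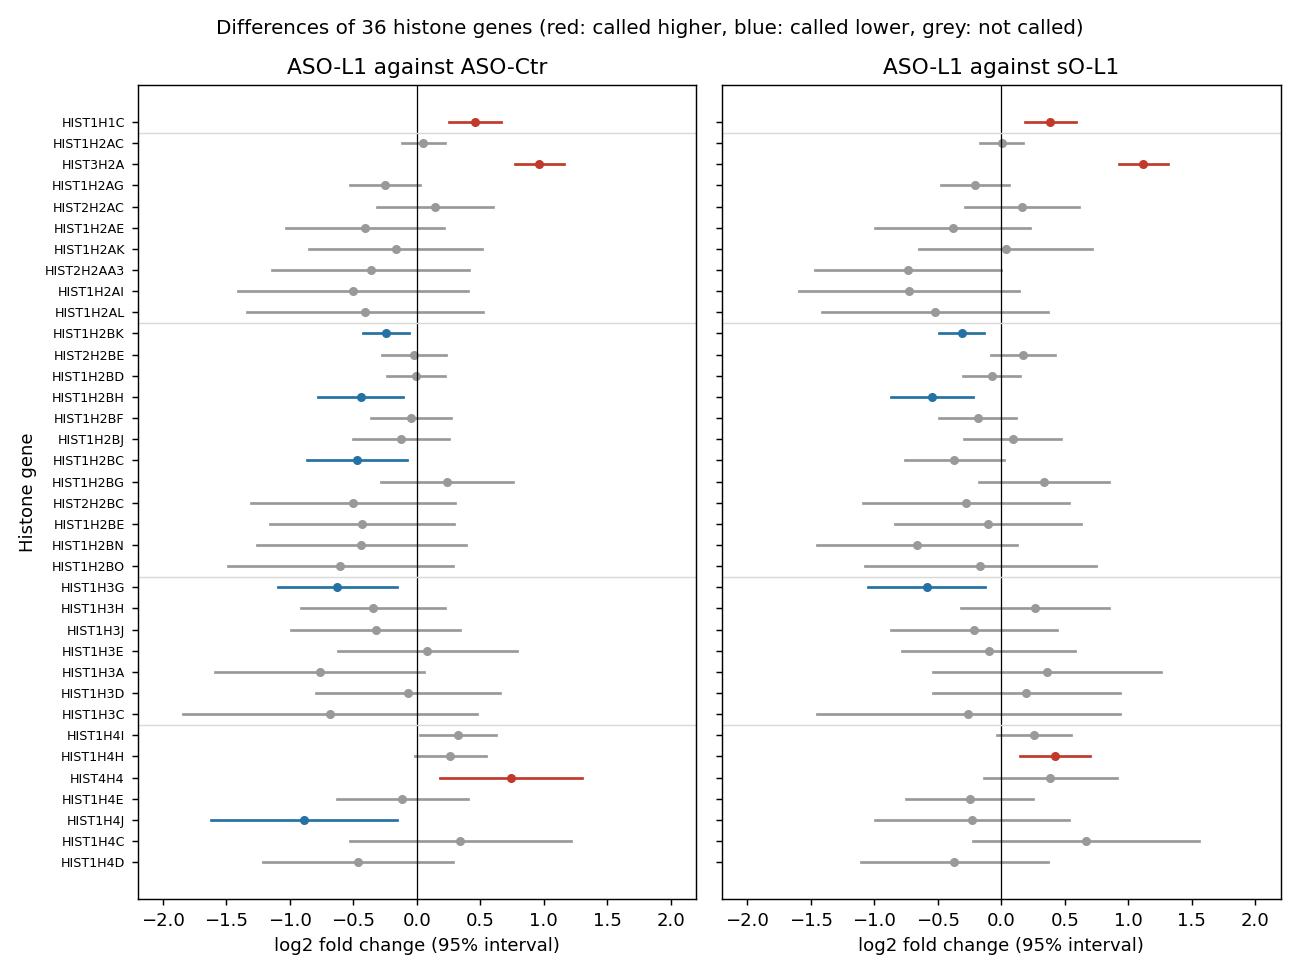
Log2 fold changes with 95% intervals of the 36 tested histone genes, ASO-L1 against ASO-Ctr (left) and ASO-L1 against sO-L1 (right), by class. HIST3H2A, at 0.97 and 1.12, is the farthest from 0 among the genes called higher, and most other intervals span 0.

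HIST3H2A, an H2A gene outside the large HIST1 cluster, had the smallest p of the members in both comparisons. Its level was 15.3, 10.96, 11.1 and 10.5 CPM in ASO-L1 replicates 1 to 4, 6.67, 4.73, 5.38 and 5.20 CPM in sO-L1, and 6.64, 5.13, 6.14 and 6.38 CPM in ASO-Ctr. All 4 ASO-L1 libraries lay above all 8 others. It was 1.95-fold higher than in ASO-Ctr (log2 0.97 ± 0.09 SE, adjusted p = 4.5e-07) and 2.17-fold higher than in sO-L1 (log2 1.12 ± 0.09 SE, adjusted p = 9.7e-08). Both calls held in all 16 fits that left out a library or a replicate number, and without the replicate block (adjusted p = 7.6e-05 and 2.5e-05). HIST3H2A is the member with the ATTAAA signal among the sequences above, and its model ends 390 bases past the stem-loop.

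HIST1H1C, which encodes the linker histone H1.2, was the other member higher in both comparisons. Its level was 15.03, 11.3, 9.18 and 9.42 CPM in ASO-L1, 11.8, 9.93, 6.21 and 6.51 CPM in sO-L1, and 9.80, 8.55, 6.01 and 7.94 CPM in ASO-Ctr. The groups overlapped, but within each replicate number ASO-L1 was the highest of the 3. It was 1.38-fold higher than in ASO-Ctr (log2 0.46 ± 0.10 SE, adjusted p = 0.0010) and 1.31-fold higher than in sO-L1 (log2 0.39 ± 0.10 SE, adjusted p = 0.0034). The calls rest on the replicate block, without which the adjusted p was 0.0852 and 0.174.

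The other H2A genes did not pass. HIST1H2AC, the family's most abundant member, had 31.5, 32.9, 21.2 and 22.8 CPM in ASO-L1, 39.7, 26.5, 22.3 and 21.4 CPM in sO-L1, and 32.3, 28.98, 21.1 and 22.3 CPM in ASO-Ctr. Libraries of replicates 1 and 2 were high in every group and those of 3 and 4 low. Its log2 fold change was 0.05, with a 95% interval from -0.12 to 0.22, against ASO-Ctr, and 0.00, from -0.17 to 0.17, against sO-L1. HIST1H2AG had 3.27 ± 0.295 CPM in ASO-L1, 3.78 ± 0.577 in sO-L1 and 3.91 ± 0.0619 in ASO-Ctr (SD, n = 4 each). All 4 ASO-L1 libraries lay below those of ASO-Ctr, yet the adjusted p was 0.130.

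Of 12 H2B genes tested, 3, or 25%, were called lower in ASO-L1 than in ASO-Ctr, against 23.1% of all genes tested. Against sO-L1 2, or 16.7%, were lower, against 22.9% of all genes tested. HIST1H2BK, the leading H2B gene, had 15.1, 14.4, 12.6 and 11.01 CPM in ASO-L1, 22.8, 15.7, 13.5 and 14.96 CPM in sO-L1, and 20.6, 15.6, 12.7 and 14.7 CPM in ASO-Ctr. Groups overlapped, and ASO-L1 was the lowest of the 3 within each replicate number. It was 1.18-fold lower than in ASO-Ctr (log2 -0.24 ± 0.09 SE, adjusted p = 0.030) and 1.24-fold lower than in sO-L1 (log2 -0.31 ± 0.09 SE, adjusted p = 0.0069). Without the replicate block neither was called (adjusted p = 0.254 and 0.128). The call against ASO-Ctr was lost on leaving out ASO-L1 replicate 1 or 4 or ASO-Ctr replicate 1, 2 or 4 (adjusted p from 0.0627 to 0.119).

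HIST1H2BH had 1.87, 3.66, 2.99 and 2.90 CPM in ASO-L1, 4.01, 4.47, 3.88 and 4.45 CPM in sO-L1, and 4.49, 3.56, 3.78 and 3.94 CPM in ASO-Ctr. Every ASO-L1 library lay below every sO-L1 library, while 1 of them was above an ASO-Ctr library. It was 1.46-fold lower than in sO-L1 (log2 -0.55 ± 0.15 SE, adjusted p = 0.0081), a call that all 16 fits leaving out a library or a replicate number kept, and 1.36-fold lower than in ASO-Ctr (log2 -0.44 ± 0.16 SE, adjusted p = 0.030). The second call was lost without ASO-L1 replicate 1 or 4 or ASO-Ctr replicate 1, 3 or 4 (log2 from -0.45 to -0.27, adjusted p from 0.0562 to 0.131). Without the replicate block both calls stood, at an adjusted p of 0.017 against sO-L1 and 0.047 against ASO-Ctr. HIST1H2BC was lower in the first comparison and not the second, at 1.001 ± 0.155 CPM in ASO-L1 against 1.40 ± 0.201 in ASO-Ctr (1.39-fold lower, adjusted p = 0.049) and was not called against sO-L1 (0.116). Whether the 2 comparisons differ was not tested. Its call did not hold under 11 of 12 single-library removals, all but sO-L1 replicate 1 (adjusted p from 0.0585 to 0.182), or without the block (0.0829). HIST2H2BE and HIST1H2BD, the next H2B genes by level, had log2 fold changes of -0.02 and -0.01 against ASO-Ctr and were not called.

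Among H3 genes HIST1H3G alone was called. It had 0.829, 0.655, 0.722 and 1.10 CPM in ASO-L1, 1.55, 0.890, 1.59 and 1.05 CPM in sO-L1, and 1.28, 1.003, 1.57 and 1.30 CPM in ASO-Ctr. The highest ASO-L1 library lay within both other groups. It was 1.54-fold lower than in ASO-Ctr (log2 -0.63 ± 0.22 SE, adjusted p = 0.030) and 1.503-fold lower than in sO-L1 (log2 -0.59 ± 0.22 SE, adjusted p = 0.039). The first call was lost without ASO-L1 replicate 1, 2 or 3 or ASO-Ctr replicate 2, 3 or 4 (adjusted p from 0.0551 to 0.134), the second without ASO-L1 or sO-L1 replicate 1, 2 or 3 (0.0588 to 0.162), and both without the block (0.0628 and 0.0751). HIST1H3H, at 0.883 ± 0.277 CPM in ASO-L1 and 1.16 ± 0.438 in ASO-Ctr, and HIST1H3J, at 0.744 ± 0.432 CPM in ASO-L1 and 0.950 ± 0.263 in ASO-Ctr, were not called.

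H4 genes went both ways. HIST4H4, the sole member with a HIST4 name, had 3.06, 2.18, 1.65 and 2.32 CPM in ASO-L1, 2.29, 2.31, 0.912 and 1.47 CPM in sO-L1, and 1.46, 1.17, 1.98 and 0.840 CPM in ASO-Ctr. ASO-L1 was higher than ASO-Ctr in 3 of 4 replicate numbers. It was 1.68-fold higher than in ASO-Ctr (log2 0.75 ± 0.26 SE, adjusted p = 0.030), whereas sO-L1 gave no call (adjusted p = 0.222). The call was lost without ASO-L1 replicate 4 or ASO-Ctr replicate 1, 2 or 4 (adjusted p from 0.0916 to 0.144) and without the block (0.0572).

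HIST1H4J, a low gene at 0.294 ± 0.0938 CPM in ASO-L1, 0.349 ± 0.171 in sO-L1 and 0.552 ± 0.130 in ASO-Ctr, was 1.85-fold lower in ASO-L1 than in ASO-Ctr (log2 -0.89 ± 0.35 SE, adjusted p = 0.047), with all 4 ASO-L1 libraries below all 4 of ASO-Ctr. Without the block the adjusted p was 0.0668. The call was also lost in 9 of 12 fits that left out 1 library, those without ASO-L1 replicate 1 or 2, sO-L1 replicate 2, 3 or 4, or any ASO-Ctr library (0.0514 to 0.211). HIST1H4H had 4.04, 3.44, 3.57 and 2.84 CPM in ASO-L1, 3.41, 2.76, 2.26 and 1.93 CPM in sO-L1, and 2.95, 2.89, 3.12 and 2.49 CPM in ASO-Ctr. It was 1.34-fold higher than in sO-L1 (log2 0.42 ± 0.13 SE, adjusted p = 0.015), in 4 of 4 replicate numbers, and the call was lost without sO-L1 replicate 3 (0.0667) and without the block (0.0747). Against ASO-Ctr its adjusted p was 0.115. HIST1H4I, the most abundant H4 gene, had 3.37 ± 0.791 CPM in ASO-L1, 2.84 ± 0.322 in sO-L1 and 2.73 ± 0.546 in ASO-Ctr (SD, n = 4 each) and was not called (adjusted p = 0.0745 against ASO-Ctr). HIST1H4C had 0.425 ± 0.0773 CPM in ASO-L1 and 0.322 ± 0.165 in ASO-Ctr and was not called.

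**Figure D5:**
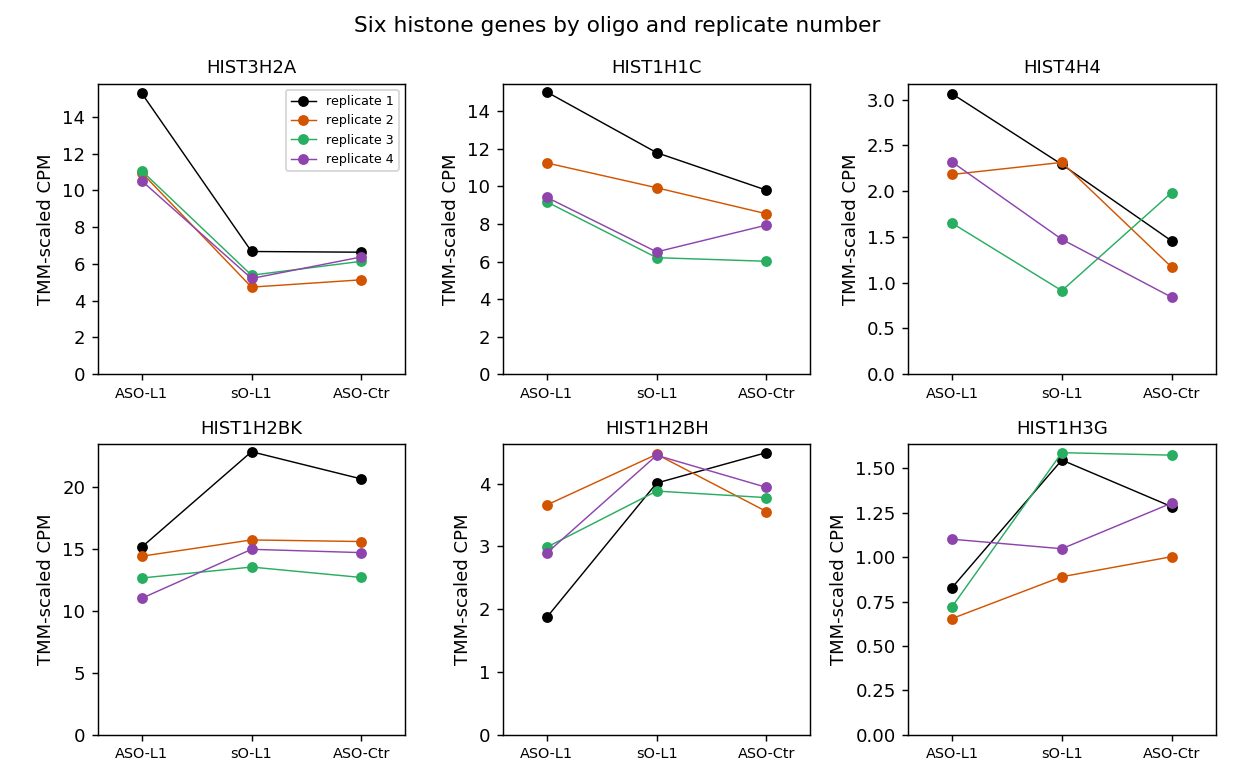
TMM-scaled CPM of 6 histone genes in ASO-L1, sO-L1 and ASO-Ctr, with libraries of the same replicate number joined. In HIST1H1C and HIST1H2BK the replicate 1 library is the highest of its group in all 3 groups, and HIST3H2A in ASO-L1 is at 10.5 to 15.3 CPM.

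The sense oligo against the non-targeting oligo gave 0 calls among the 36 members by edgeR, with 2, or 5.56%, at an unadjusted p under 0.05, against 7.14% of all genes tested, 0 by DESeq2 and 0 by limma on the authors' log2 table. Of all genes tested, 0.290% were called, 0.0695% higher and 0.220% lower, and of those under 5 CPM 0.108%. The median log2 fold change of the 36 members was -0.07 (14 positive, 22 negative), against 0.00 for all genes tested. When the fit held only these groups, HIST1H3A, named after its values were seen, was called lower. It had 0.115, 0.320, 0.353 and 0.360 CPM in sO-L1 and 0.771, 0.573, 0.819 and 0.435 CPM in ASO-Ctr, and it was the single member whose groups did not overlap, against 3.23% of all genes tested. In the fit with all 12 libraries its adjusted p was 0.438.

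Some members also differed between replicate numbers. In the same fit, a test of the replicate numbers called 4 of the 36 members, HIST1H2AC, HIST1H1C, HIST1H2BK and HIST3H2A, which are the 4 with a mean of at least 5 CPM, where 13.6% of all genes tested were called. Averaged over the 3 groups, HIST1H2AC had 34.5, 29.4, 21.5 and 22.2 CPM in replicates 1 to 4. HIST1H1C had 12.2, 9.91, 7.13 and 7.96 CPM, a range of 0.78 on the log2 scale, wider than its log2 fold change in either ASO-L1 comparison. HIST1H2BK had 19.5, 15.2, 12.95 and 13.6 CPM. This test was chosen after the data were seen, and what sets the replicate numbers apart is not given in the labels. The share it called among all genes of at least 5 CPM was not worked out, so these calls are not read as particular to histone genes.

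The authors' deposited table, for ASO-L1 against sO-L1, lists 55 members, of which 3 were higher and 2 lower at an adjusted p under 0.05, and its 5 calls had the direction found here. It called 32.8% of its 20856 genes. In the authors' deposited table HIST3H2A had a log2 fold change of 1.13 and an adjusted p of 6.3e-07. HIST1H3G, called here, had an adjusted p of 0.112 in the authors' deposited table.

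Genes that make, process and carry histones were followed as lists written from general knowledge, to be read against the 44.3% of all genes tested that were called against ASO-Ctr and the 44.0% against sO-L1. Of 16 members named there as known to make polyadenylated messages, 12 were tested, and 3 were higher and 2 lower in ASO-L1 than in ASO-Ctr, and 3 higher and 1 lower in ASO-L1 than in sO-L1 (41.7% and 33.3% called, median log2 fold changes 0.02 and 0.13). Replacement histones, whose genes are used outside S phase and make ordinary polyadenylated messages, had 3 of 13 tested members higher and 0 lower in ASO-L1 in each comparison, or 23.1%, with medians of -0.03 and 0.02. They were H2AFJ, a variant of H2A (34.7 ± 2.93 CPM in ASO-L1, 24.9 ± 3.53 in ASO-Ctr, log2 0.49 ± 0.06 SE, adjusted p = 3.9e-06), H2AFY, which encodes macroH2A, and CENPA, the H3 variant of centromeres (log2 0.34 ± 0.08 SE, adjusted p = 0.0016). H2AFZ, at 731 ± 66.4 CPM in ASO-L1 and 705 ± 74.9 in ASO-Ctr, H3F3B, H3F3A and H1F0 were not called. In the list of histone 3′ end processing, 8 of 28 were higher and 3 lower in each ASO-L1 comparison, or 39.3%, close to the share of all genes, with medians of 0.02 and 0.03. NCBP2, of the cap-binding complex, was lower (log2 -0.62 ± 0.05 SE, adjusted p = 6.5e-08), as were WDR33, which binds the poly(A) signal (log2 -0.68 ± 0.06 SE), and CDK9. LSM10, of the U7 snRNP, was higher (log2 0.26 ± 0.06 SE, adjusted p = 0.0020). SLBP, the stem-loop binding protein, was higher against ASO-Ctr (log2 0.15 ± 0.05 SE, adjusted p = 0.018), with no call against sO-L1 (0.288). NPAT, the activator of histone transcription, was called in neither comparison (log2 -0.02 ± 0.05 SE).

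Among 19 genes of histone mRNA decay, 2 were higher and 5 lower against ASO-Ctr, and 1 and 6 against sO-L1, which is 36.8% in each, where 44.3% and 44.0% of all genes tested were called (21.2% and 21.1% higher, 23.1% and 22.9% lower). The list's median log2 fold changes were -0.06 and -0.10, against -0.00 for all genes in both comparisons. ATR, a kinase of the replication checkpoint, was lower (17.4 ± 2.79 CPM in ASO-L1, 25.8 ± 3.31 in ASO-Ctr, adjusted p = 6.7e-06), and the decapping gene DCP1A was higher (log2 0.53 ± 0.08 SE, adjusted p = 5.1e-05). Of 24 histone chaperones, 8 were higher and 4 lower against ASO-Ctr and 9 and 5 against sO-L1, or 50.0% and 58.3%, with medians of 0.08 and 0.06. ASF1B, an H3-H4 chaperone of proliferating cells, was lower (22.2 ± 3.85 CPM in ASO-L1, 30.1 ± 1.17 in ASO-Ctr, log2 -0.44 ± 0.08 SE), as was NASP (log2 -0.21 ± 0.04 SE). Of 36 S phase genes, 3 were higher and 16 lower against ASO-Ctr, and 6 and 13 against sO-L1, or 52.8% in each, with medians of -0.10 and -0.03. No list was tested against other genes. GINS2, of the replicative helicase, was lower (37.5 ± 8.23 CPM in ASO-L1, 59.4 ± 4.58 in ASO-Ctr, log2 -0.67 ± 0.09 SE), and so were TICRR (log2 -0.46 ± 0.05 SE), UHRF1 (-0.54 ± 0.08) and PCNA, while MCM10 and CCNA2 were higher. Their part in the histone levels was not tested. Between sO-L1 and ASO-Ctr, edgeR called 0 members of these lists, with 2 replacement histones, 1 gene of 3′ end processing, 0 of decay, 3 chaperones and 4 S phase genes at an unadjusted p under 0.05, where 7.14% of all genes tested were.

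Marker lists were checked for the labelled cells and for others. The 10 pluripotent stem cell markers, all detected, summed to 10010 to 10449 CPM in ASO-L1, 10948 to 11504 CPM in sO-L1 and 11267 to 11315 CPM in ASO-Ctr. In ASO-L1 DPPA4 was higher and LIN28A, L1TD1 and DNMT3B lower in both comparisons, with SALL4 lower than in ASO-Ctr and SOX2 lower than in sO-L1. The 10 fibroblast or feeder markers summed to 115 to 136 CPM in ASO-L1, 104 to 134 CPM in sO-L1 and 118 to 143 CPM in ASO-Ctr, with DPT and LUM at 0 everywhere, THY1 higher and COL1A2 lower in ASO-L1. The 8 trophectoderm markers summed to 50.1 to 62.4 CPM in ASO-L1, 49.4 to 61.4 CPM in sO-L1 and 48.6 to 57.5 CPM in ASO-Ctr, with CDX2 and VGLL1 at 0 everywhere and 0 of the 2 tested called. The 6 primitive endoderm markers summed to 84.1 to 119 CPM in ASO-L1, 106 to 137 CPM in sO-L1 and 106 to 137 CPM in ASO-Ctr, with PDGFRA and COL4A1 lower in ASO-L1. The markers' part in the histone results was not tested, and in bulk libraries fewer cells of a kind and less RNA per cell cannot be told apart.

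Upstream of the genes, RefSeq promoters (250 bases before to 50 after the start, GRCh38.p14, both strands searched, overlaps counted) were matched for 65 members. CCAAT was in 84.6% of them, with all 6 H1, 16 H2A, 18 H2B and 12 H3 promoters and 3 of 13 H4 promoters, and in 34.6% of all 35116 promoters. TATAAA was in 66.2% of members and 11.5% of all. The octamer ATTTGCAT, the binding letters of POU factors, was in 11 of 16 H2A and 14 of 18 H2B promoters, 1 of 12 H3 promoters and 0 of 6 H1 and 0 of 13 H4 promoters, 26 of 65 members in all, against 1.77% of all promoters. Many H2A and H2B windows overlap, such as those of HIST1H2AC and HIST1H2BC, so the same site can be counted for more than 1 promoter. HIST1H3D, the H3 gene with the octamer, had the same window as HIST1H2AD. Promoters are thus not independent of each other in these counts. Matches are letters in a window and no evidence of binding. Promoters are shown for HIST3H2A, the member highest over both other groups, and HIST1H2BK, 1 of 3 H2B genes called lower. Matches to these letters on either strand are in capitals.
HIST3H2A (RefSeq symbol H2AC25), chr1:228457824-228458123, minus strand: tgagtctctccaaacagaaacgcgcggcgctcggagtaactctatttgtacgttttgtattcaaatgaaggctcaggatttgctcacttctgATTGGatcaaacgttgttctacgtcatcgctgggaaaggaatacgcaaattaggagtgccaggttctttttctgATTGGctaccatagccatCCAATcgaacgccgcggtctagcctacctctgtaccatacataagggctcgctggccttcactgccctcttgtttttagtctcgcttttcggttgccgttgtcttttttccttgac
HIST1H2BK (RefSeq symbol H2BC12), chr6:27146809-27147108, minus strand: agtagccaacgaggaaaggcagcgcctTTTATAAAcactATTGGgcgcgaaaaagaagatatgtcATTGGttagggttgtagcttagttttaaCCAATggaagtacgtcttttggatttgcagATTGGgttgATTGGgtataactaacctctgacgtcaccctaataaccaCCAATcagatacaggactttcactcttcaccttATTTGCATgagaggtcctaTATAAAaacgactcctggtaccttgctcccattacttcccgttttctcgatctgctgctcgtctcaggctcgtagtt
The HIST3H2A window held 3 matches to CCAAT, 0 to TATAAA and 0 to the octamer. The HIST1H2BK window held 6 matches to CCAAT, 3 to TATAAA and 1 to the octamer. In the same order, HIST1H2BH, also called lower, had 3, 0 and 1 matches. HIST1H3G, called lower, had 4, 0 and 0, and HIST1H1C, called higher, had 1, 0 and 0. Windows with 0 matches to TATAAA were thus found among members called higher and members called lower. Only the exact letters were searched, so 0 matches does not mean that a window lacks close variants of them.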

How the data were processed

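The authors deposited a table of raw counts for 12 libraries, duplicates removed according to its label. The submitters' processing notes name hg19, Trim Galore 0.4.0, featureCounts (Subread 1.5.0) and TopHat2 2.0.13. The annotation, and how strand and reads matching several genes were handled, are not given in the sources used here. Duplicate removal compresses abundant genes more than rare ones. The authors also deposited log2 normalized, batch-corrected values, per the labels, and a table of ASO-L1 against sO-L1 with log2 fold changes, p-values, and other deposited scores that were not used.

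Tests used edgeR 4.0.16 under R 4.3.3 (TMM, filterByExpr with a minimum count of 10, two-sided quasi-likelihood tests) over the 12 libraries, with terms for oligo and for replicate number. It kept 17264 genes, called at a Benjamini-Hochberg adjusted p under 0.05 over all of them. SEs and 95% intervals are those implied by the F statistic. CPM are TMM-scaled, and 3 reads in a library set the floor of detection. Intervals cover counting error and spread between libraries only. Same-numbered libraries paired: correlations of deviations from group means ran from 0.216 to 0.725 over 12 pairs, and 0 pairs of libraries were identical. Pairs of different numbers had a median of -0.223. Deviations sum to 0 within a group, which pushes these below 0 when same-numbered pairs are above it, so that median is no separate evidence. DESeq2 1.42.0, limma 3.58.1, other scalings, no filter and leaving out libraries were alternatives, and the tests were tried on simulated data. Members, gene lists and tests were chosen with earlier results of these data known. Members were named by a rule: up to 8 called per direction with the same sign in all 4 replicate numbers, all called where 5 or fewer, the 3 most abundant of each class, and a list of 9 set genes. Sequences came from GENCODE 29 transcripts (GRCh38) and RefSeq promoters (GRCh38.p14), with no coordinates of the count table's build printed.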

Additional observations from a re-analysis of the deposited data

Results flagged for a closer look

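In 69 groups of 4 libraries looked at, 3 had a library far from the others by Dixon's test, where chance gives about 1 in 20 groups. HIST3H2A in ASO-L1 had its highest library, replicate 1, at 15.3 CPM, with the other libraries from 10.5 to 11.1 CPM, and the gene's call held without it. HIST1H4I in ASO-L1 had its highest library, replicate 2, at 4.56 CPM, with the others from 2.96 to 3.02 CPM. The summed H3 genes in ASO-Ctr had their lowest library, replicate 2, at 4.96 CPM, with the others from 6.27 to 6.51 CPM. Outside the members, the pseudogene HIST1H1PS1, left out by the naming rule, averaged 0.269 CPM in ASO-L1, above the highest library of sO-L1, at 0.0890 CPM, and of ASO-Ctr, at 0.171 CPM. It had 36 reads over the 4 libraries of ASO-L1, 11 over those of sO-L1 and 11 over those of ASO-Ctr, too few to be tested.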

How the results depend on the processing

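The count of histone genes called in ASO-L1 against ASO-Ctr was 8, and it moved to 2 with no replicate block, 4 with the fit on only these groups and 5 with DESeq2. DESeq2 lost HIST1H2BC, HIST1H3G and HIST1H4J there, and the fit on only these groups lost HIST1H2BC, HIST1H2BH, HIST1H2BK and HIST1H4J. It was 7 with RLE size factors, 8 with library size alone, 6 with no filter and 11 with limma on the authors' log2 values, and from 3 to 8 on leaving out 1 library or 1 replicate number. It was 3 to 5 without ASO-L1 replicate 1 or 2, without any 1 ASO-Ctr library and without any 1 replicate number. Without ASO-L1 replicate 1, or without replicate number 1, the calls were 4 higher and 0 lower, with HIST1H4I among the 4. The other removals left from 1 to 5 lower. Some of these called HIST1H3A or HIST1H2AG lower, which the main fit did not call. For ASO-L1 against sO-L1 the count was 6, and 2 with no replicate block, which kept HIST3H2A and HIST1H2BH in both comparisons. Other settings gave from 5 to 9 calls there, and leaving out a library or replicate number from 4 to 7. For sO-L1 against ASO-Ctr it was 0 in every setting but the fit on only these groups, which called 1. Libraries of the same replicate number deviated together, so the block is the main fit. HIST3H2A was called in every setting run in both ASO-L1 comparisons. No called member changed sign in any setting. The summed H3 genes of sO-L1 moved to 4.40 CPM when only members that passed the filter were summed. At these depths a floor of 3 reads limits what is seen of the 40 members under the filter. The cause of the lost calls was not tested.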
